A study of Mus musculus with 18 samples.

Results

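*Npm2*, *Dppa3*, *Pou5f1*, *Sall4*, *Smarca4* and *Trim24* are 6 genes whose products mouse oocytes are known for, either as nuclear proteins that the egg passes to the embryo or as transcription factors of the germ line and of pluripotent cells. They were taken by gene symbol from the 28252 genes of the TPM table (a level scaled for gene length and library size), and their read counts by the same Ensembl identifier from the 53715 genes of the count table. All 6 genes were found in both tables, and all 6 passed the filter on low counts. RNA was measured in 18 libraries, 3 in each of 6 groups, from F1 female mice (C57Bl/6j x CBA/J) with no genetic change. Primordial and primary follicle oocytes were cut from ovarian sections by laser capture microdissection, either from ovaries of 14-day-old mice that had not been cultured (*in vivo*) or from ovaries taken at 7 days of age and cultured for 7 days (*in vitro*). Metaphase II (MII) oocytes, the stage that is ovulated, came from adult mice superovulated with gonadotrophins (*in vivo*) or from 7-day-old ovaries cultured for 7 days, whose isolated follicles were cultured for 12 further days and given human chorionic gonadotrophin (*in vitro*). The study compared growth in the animal with growth in culture at each of the 3 stages.

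Each library was a pool of oocytes, and nothing in the sources used here says which animals or cultures a library came from, so that p-values measure only the spread between these libraries, which may be technical. In the MII comparison, culture cannot be told apart from the age of the donor, since the *in vivo* oocytes came from adults. Microdissected and MII libraries were made with different kits, so stage and kit cannot be told apart between them, and their levels are given side by side with no test. In such bulk libraries, fewer oocytes carrying a transcript and less transcript per oocyte cannot be told apart either.

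A growing oocyte stores RNA and protein that run the first cell divisions of the embryo, before its own genome is transcribed. NPM2 (nucleoplasmin 2) is a histone chaperone that reorganises chromatin after fertilisation, and DPPA3 (also called Stella or PGC7) protects the maternal genome from loss of DNA methylation. POU5F1 (OCT4) and SALL4 are transcription factors of pluripotent cells that are also made in oocytes, SMARCA4 (BRG1) is the ATPase of BAF chromatin remodelling complexes, and TRIM24 (TIF1-alpha) is a nuclear co-regulator that reads histone marks.

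The genes lie on 5 chromosomes (mm10, GRCm38). *Npm2* (ENSMUSG00000047911) spans chr14:70647302-70659244 on the minus strand, and 39 of its exonic bases are shared with *Xpo7* on the same strand. *Dppa3* (ENSMUSG00000046323) spans chr6:122626410-122630272 on the plus strand. Of the 50-base stretches of its transcripts, 16.5% also occur in another gene, mainly in the pseudogene *Dppa3-ps*, which had 0 counts in all libraries. *Pou5f1* (ENSMUSG00000024406) spans chr17:35506018-35510772 on the plus strand and overlaps the antisense gene *Gm19553* over 317 exonic bases. *Sall4* (ENSMUSG00000027547) spans chr2:168748332-168767943 on the minus strand and overlaps *Gm14261* on the other strand over 526 exonic bases. *Smarca4* (ENSMUSG00000032187) spans chr9:21616169-21704230 on the plus strand and holds the small RNA gene *Gm27373*, with 99 shared exonic bases on the same strand. *Gm27373* had 12338 counts in all libraries, of which 11333 were in primary *in vivo* library 1, where *Smarca4* had 19236. *Trim24* (ENSMUSG00000029833) spans chr6:37870811-37966296 on the plus strand and shares 3.63% of its 50-base stretches with other genes, among them *Arhgef7* (34974 counts in all libraries) and *Malt1* (10722 counts). The sources used here do not say whether counting used strand or how reads with several matches were counted, so the counts of all 6 genes are uncertain to that extent.

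The promoters shown are those of the RefSeq table (GRCm38.p6), 250 bases before the first start site, plus strand, 5′ to 3′, for the 3 of 6 genes that it lists. Of these 3 genes, *Smarca4* and *Trim24* had higher median levels in microdissected than in MII libraries while *Pou5f1* did not. A link between promoter and level was not tested. Capitals mark GC boxes (GGGCGG or its reverse complement CCGCCC) and CCAAT boxes (CCAAT or ATTGG). A GC box and a CCAAT box can share letters, but none do in these windows.
Smarca4, chr9:21615919-21616168: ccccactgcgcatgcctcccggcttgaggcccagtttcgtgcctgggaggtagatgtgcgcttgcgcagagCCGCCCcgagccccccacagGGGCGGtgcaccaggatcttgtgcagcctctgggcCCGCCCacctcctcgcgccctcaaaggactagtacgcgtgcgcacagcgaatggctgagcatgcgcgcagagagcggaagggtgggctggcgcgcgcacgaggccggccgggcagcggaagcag
Trim24, chr6:37870561-37870810: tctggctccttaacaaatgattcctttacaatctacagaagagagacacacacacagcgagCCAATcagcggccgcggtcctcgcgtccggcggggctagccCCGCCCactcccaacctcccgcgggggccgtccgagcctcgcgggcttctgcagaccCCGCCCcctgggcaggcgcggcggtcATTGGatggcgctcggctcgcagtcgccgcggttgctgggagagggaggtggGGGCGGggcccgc
Pou5f1, chr17:35505782-35506031: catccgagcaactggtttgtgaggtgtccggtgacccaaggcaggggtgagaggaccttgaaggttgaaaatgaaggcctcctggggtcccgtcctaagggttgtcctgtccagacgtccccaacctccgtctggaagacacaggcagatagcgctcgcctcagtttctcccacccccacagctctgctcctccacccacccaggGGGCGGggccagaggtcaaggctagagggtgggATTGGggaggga
The *Smarca4* promoter held 25 CpG sites and 3 GC boxes, that of *Trim24* 27 CpG sites, 3 GC boxes and 2 CCAAT boxes, and that of *Pou5f1* 8 CpG sites, 1 GC box and 1 CCAAT box. The median of all 32851 windows was 6 CpG sites, 32.7% of windows had a GC box and 33.8% a CCAAT box. The *Smarca4* and *Trim24* windows are thus rich in CpG sites (more than in 89.3% and 91.4% of windows), and the *Pou5f1* window is near the middle (more than in 57% of windows). TATAAA or TTTATA, present in 12.4% of windows, was in none of the 3.

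The libraries differed in depth and in their likeness to each other. Total counts ranged from 15149564 to 29205503 in the 12 microdissected and from 7334817 to 9978830 in the 6 MII libraries. A floor of 3 counts, which covers counting error only, was then 0.103 to 0.198 and 0.301 to 0.409 CPM, which is a count divided by its library's total. Spearman's correlation of counts between libraries of a group was 0.112 to 0.693 in microdissected and 0.84 to 0.929 in MII groups. Between 12 and 15 of 15 oocyte markers were above the floor in every library, with a summed level of 332 to 2013 TPM in microdissected and 10593 to 21358 TPM in MII libraries, and the only markers at 0 in a whole group were *Oosp1* in primordial *in vivo* and *Sohlh1* in MII *in vivo* oocytes. Granulosa cell markers, of the cells around the oocyte, summed to 58.8 to 2619 TPM in microdissected and 25.1 to 72.7 TPM in MII libraries. In the MII libraries *Foxl2*, *Amhr2* and *Fst* had 0 counts in all 6. *Cyp19a1* went the other way, with 17.5 to 64.7 TPM in MII libraries and at most 0.193 TPM in microdissected libraries. *Fshr* did too, with 0 to 6.42 TPM in MII libraries and 0 in all microdissected libraries.

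*Npm2* was at or near 0 in primordial oocytes and present in every primary and MII library. In primordial oocytes it had 0, 0 and 0.524 TPM *in vivo* and 0, 103.7 and 0.15 TPM *in vitro*. Primary oocytes had 5.00, 6.74 and 71.6 TPM *in vivo* and 70.3, 29.9 and 57.0 TPM *in vitro*. MII oocytes had 76.9, 407.2 and 271.0 TPM *in vivo* and 92.8, 198.4 and 147.1 TPM *in vitro*. One primordial library, *in vitro* library 2, stood apart from the other 5, which had at most 4 counts each. All 6 primary libraries were above those 5, and all 3 primary *in vivo* libraries were above all 3 primordial *in vivo* libraries. By mean TPM the order of the groups was MII *in vivo*, MII *in vitro*, primary *in vitro*, primordial *in vitro*, primary *in vivo* and primordial *in vivo*. Neighbours in that order overlapped except MII *in vitro* with primary *in vitro* and primary *in vivo* with primordial *in vivo*.

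*Sall4*, whose product works with POU5F1 in pluripotent cells, followed the same outline with a larger step to the MII stage. In primordial oocytes it had 0.0263, 1.33 and 0 TPM *in vivo* and 0, 125.5 and 0 TPM *in vitro*, where library 2 had 5916 counts and libraries 1 and 3 had none. Primary oocytes had 1.07, 10.9 and 2.79 TPM *in vivo* and 20.8, 4.78 and 32.6 TPM *in vitro*. MII oocytes had 252.3, 299.7 and 296.2 TPM *in vivo* and 284.9, 242.1 and 353.7 TPM *in vitro*. The MII libraries stayed within 1.73-fold of each other, and the lowest was 1.93 times the highest microdissected library, the same primordial *in vitro* library 2 that was high in *Npm2*. The order by mean TPM was MII *in vitro*, MII *in vivo*, primordial *in vitro*, primary *in vitro*, primary *in vivo* and primordial *in vivo*, where only the step from MII *in vivo* to the next group, primordial *in vitro*, had no overlap.

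*Pou5f1* was detected in most libraries of all stages and had no step at the MII stage. In primordial oocytes it had 20.4, 42.9 and 90.0 TPM *in vivo* and 0, 87.3 and 0 TPM *in vitro*. Primary oocytes had 0.96, 32.3 and 140.4 TPM *in vivo* and 125.2, 93.8 and 39.1 TPM *in vitro*. MII oocytes had 45.7, 149.2 and 117.9 TPM *in vivo* and 135.5, 123.0 and 64.3 TPM *in vitro*. By mean TPM the order was MII *in vitro*, MII *in vivo*, primary *in vitro*, primary *in vivo*, primordial *in vivo* and primordial *in vitro*, and every pair of neighbours overlapped. Primordial *in vitro* libraries 1 and 3 had 0 counts. In these, 12 and 14 of 15 oocyte markers were above the floor. Library 1 had 72 counts of *Ddx4*, 32 of *Gdf9*, 13 of *Dazl*, 10 of *Nobox* and 8 of *Figla*. It also had 2599 counts of *Zp1*, 155 of *Kit*, 126 of *Zp2* and 121 of *Zp3*. Library 3 had 6114 counts of *Ddx4* and 5414 of *Kit*, but 5 of *Gdf9* and 6 of *Bmp15*. The antisense neighbour of *Pou5f1*, *Gm19553*, had 3286 counts over all libraries, at most 789 in 1 library.

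*Dppa3* was the member with the sharpest contrast between the kinds of library. Primordial oocytes had 10.6, 6.20 and 3.497 TPM *in vivo* and 9.98, 7.24 and 4.01 TPM *in vitro*, and primary oocytes had 2.90, 1.54 and 8.10 TPM *in vivo* and 6.65, 1.33 and 4.46 TPM *in vitro*. These are 9 to 65 counts a library, all above the floor, and all 4 groups overlapped. MII oocytes had 13207, 11281 and 13320 TPM *in vivo* and 5509, 10261 and 11202 TPM *in vitro*, with 20761 to 41861 counts. By mean TPM the order was MII *in vivo*, MII *in vitro*, primordial *in vitro*, primordial *in vivo*, primary *in vivo* and primary *in vitro*, and the last 4 could not be separated from their neighbours. The lowest MII library was 520 times the highest microdissected library. By TPM, *Dppa3* ranked between 6 and 21 among all genes of each MII library and between 2749 and 7523 in the microdissected libraries. No other member came near this span, and *Dppa3* was also the least variable member over the microdissected libraries (highest to lowest 7.78-fold).

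*Smarca4* was found in all libraries and, unlike *Dppa3*, had its lowest TPM values in MII oocytes. Primordial oocytes had 98.7, 96.3 and 49.4 TPM *in vivo* and 668.2, 132.7 and 72.6 TPM *in vitro*, and primary oocytes had 427.4, 105.5 and 304.3 TPM *in vivo* and 156.4, 189.5 and 203.9 TPM *in vitro*. MII oocytes had 14.6, 46.5 and 46.7 TPM *in vivo* and 14.4, 26.1 and 24.2 TPM *in vitro*. By TPM, every microdissected library was above every MII library, by a narrow margin at the boundary. There the lowest microdissected library was 1.06 times the highest MII library. In unscaled CPM the kinds of library overlapped, with 97.8 in primordial *in vivo* library 3 and 122.3 in MII *in vivo* library 2. By TPM, primary oocytes *in vitro* were the most even group of *Smarca4* in relative terms (183 ± 24.4 TPM, SD, n = 3), and all 3 were above all 3 primordial *in vivo* libraries. In scaled counts they were not the most even, at 319 ± 86.9 CPM beside 53.1 ± 6.51 in MII *in vitro* and 158 ± 32.9 in primordial *in vivo* oocytes. By mean TPM the order was primordial *in vitro*, primary *in vivo*, primary *in vitro*, primordial *in vivo*, MII *in vivo* and MII *in vitro*, and of the neighbours only primary *in vitro* with primordial *in vivo*, and the latter with MII *in vivo*, had no overlap.

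*Trim24* was also lower in MII oocytes. Among the genes above the floor in all 12 microdissected libraries, it was the most uneven there. *Npm2*, *Pou5f1* and *Sall4* had microdissected libraries at 0 counts, so their full span has no fold value. Primordial oocytes had 140.1, 103.9 and 9.17 TPM *in vivo* and 487.1, 1.72 and 70.1 TPM *in vitro*, and primary oocytes had 0.692, 39.3 and 324.9 TPM *in vivo* and 68.0, 31.1 and 46.4 TPM *in vitro*. MII oocytes had 7.27, 14.1 and 7.94 TPM *in vivo* and 2.22, 6.76 and 4.32 TPM *in vitro*. The microdissected libraries spanned 588-fold and the MII libraries 4.63-fold. A single library gave 88.1% of the scaled counts summed over the primordial *in vitro* group and another gave 88.5% in the primary *in vivo* group. Primordial *in vitro* library 2, high in *Npm2* and *Sall4*, was the lowest of its group in *Trim24*. Its group means fell in the order primordial *in vitro*, primary *in vivo*, primordial *in vivo*, primary *in vitro*, MII *in vivo* and MII *in vitro*, with overlap between neighbours up to primary *in vitro* and none after it.

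**Figure D1:**
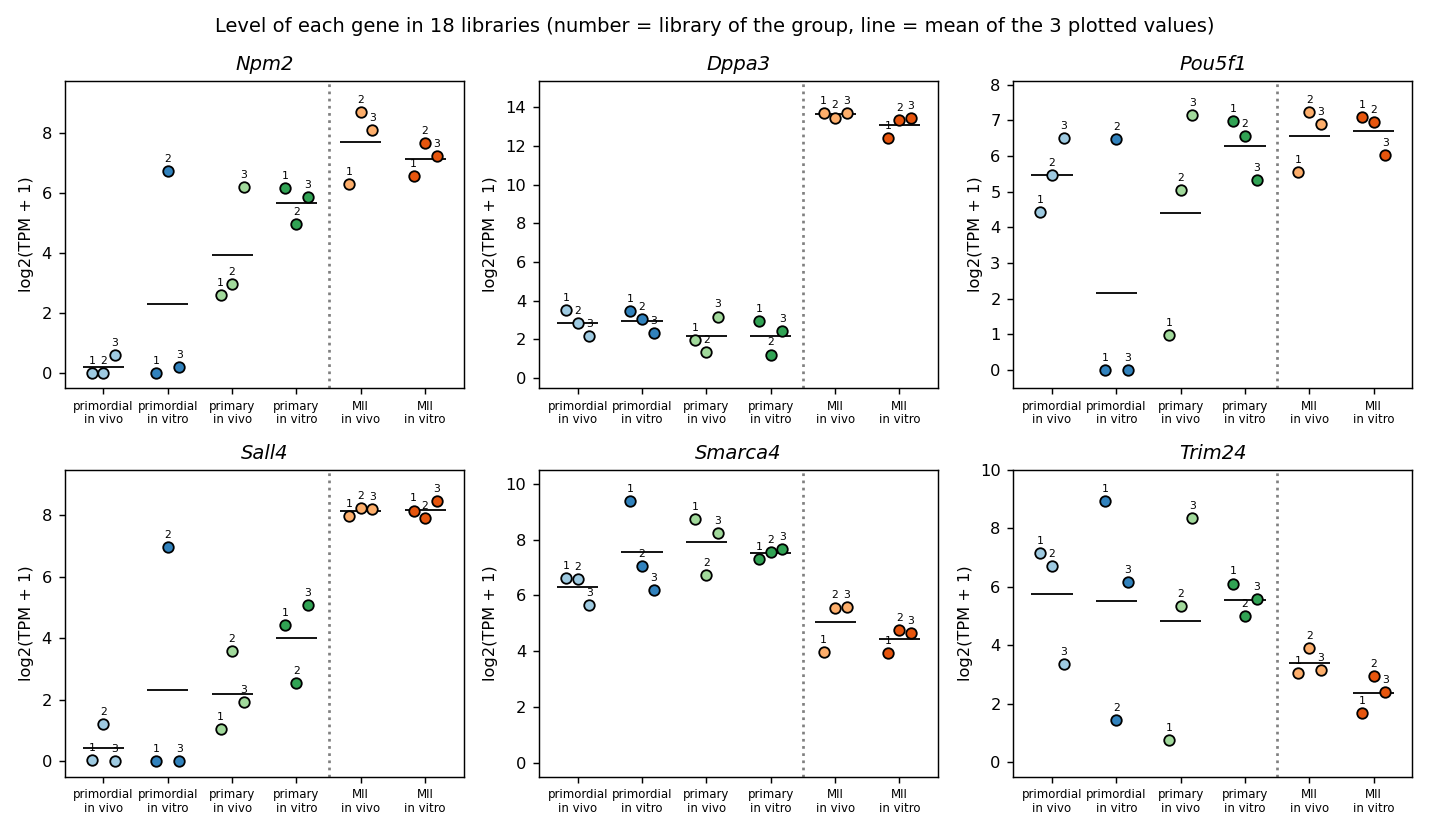
Level of each gene in each library, as log2(TPM + 1) on the vertical axis, over the 6 groups of 3 libraries on the horizontal axis. Points are libraries, numbers are library numbers, lines are the means of the 3 plotted values and the dotted line separates library kits. The 6 MII libraries lie above all microdissected libraries for *Dppa3* and *Sall4* and below them for *Smarca4*, and primordial *in vitro* library 2 stands apart from the others of its group for *Npm2*, *Pou5f1* and *Sall4*.

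Side by side, 2 of the 6 genes had all 6 MII libraries above all 12 microdissected libraries on the TPM scale, against 16.1% of the 25701 genes with any TPM above 0, and 1 had all MII libraries below, against 1.37%. These are *Dppa3* and *Sall4* (above) and *Smarca4* (below, in TPM but not in unscaled CPM). The median MII level over the median microdissected level was 2109 for *Dppa3*, 141 for *Sall4*, 29.4 for *Npm2*, 2.94 for *Pou5f1*, 0.174 for *Smarca4* and 0.123 for *Trim24*. For *Npm2* and *Sall4*, 4 of 12 microdissected libraries were at or under the floor, and for *Pou5f1* 2 of 12, while the other 3 genes were above it in all 12.

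In MII oocytes none of the 6 genes passed the threshold between growth in culture and in the animal, and *Trim24* came nearest. Calls needed a change of at least 2-fold and an edgeR quasi-likelihood p under 0.05 after Benjamini-Hochberg adjustment. The MII libraries were the tighter data set, with a biological coefficient of variation of 0.726 against 2.02 in the microdissected libraries, and each change is given as the log2 fold change of *in vitro* over *in vivo*.

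*Trim24* had 7.27, 14.1 and 7.94 TPM *in vivo* (9.77 ± 3.76, SD, n = 3) and 2.22, 6.76 and 4.32 TPM *in vitro* (4.44 ± 2.27). All 3 *in vitro* libraries were below all 3 *in vivo* libraries, on this scale and in scaled counts. The log2 fold change was -1.15 ± 0.47 (SE, 95% interval -2.15 to -0.14), which did not pass after adjustment over 17144 genes (edgeR adjusted p = 0.44, DESeq2 adjusted p = 0.205). The interval lies below 0 before adjustment, and the change kept its sign when each library was left out in turn (-1.44 to -0.83).

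*Npm2* was 252 ± 166 TPM *in vivo* and 146 ± 52.8 TPM *in vitro*, a log2 fold change of -0.72 ± 0.46 (95% interval -1.71 to 0.27, edgeR adjusted p = 0.575). *Smarca4* was 35.9 ± 18.5 and 21.6 ± 6.31 TPM, with -0.67 ± 0.40 (-1.53 to 0.20, edgeR adjusted p = 0.541). In both genes *in vivo* library 1 was low and the other *in vivo* libraries were above all 3 *in vitro* libraries. Without that library the log2 fold changes were -1.12 for *Npm2* and -1.004 for *Smarca4*, and the number of all genes called rose from 60 to 378, with neither gene among them (the smallest edgeR adjusted p of each over the left-out libraries was 0.0973 and 0.105).

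*Dppa3* was 12603 ± 1146 TPM *in vivo* and 8991 ± 3052 TPM *in vitro*. The *in vitro* libraries lay below the *in vivo* libraries in TPM by a small gap (11202 against 11281), but overlapped them in counts scaled by TMM, edgeR's trimmed-mean scaling (3652 against 3602 CPM). The log2 fold change was -0.48 ± 0.35 (95% interval -1.23 to 0.26, edgeR adjusted p = 0.641), so that the interval leaves out a fall by more than 1.23 on the log2 scale.

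The transcription factors had the smallest differences. *Pou5f1* was 104 ± 53.1 TPM *in vivo* and 108 ± 38.0 TPM *in vitro* (log2 fold change 0.20 ± 0.44, 95% interval -0.76 to 1.16, edgeR adjusted p = 0.926). *Sall4* was 283 ± 26.4 and 294 ± 56.3 TPM (0.14 ± 0.33, -0.57 to 0.84, edgeR adjusted p = 0.931). The sign of *Pou5f1* turned without *in vivo* library 1 or *in vitro* library 1, and that of *Sall4* without *in vitro* library 1, so neither has a direction.

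**Figure D2:**
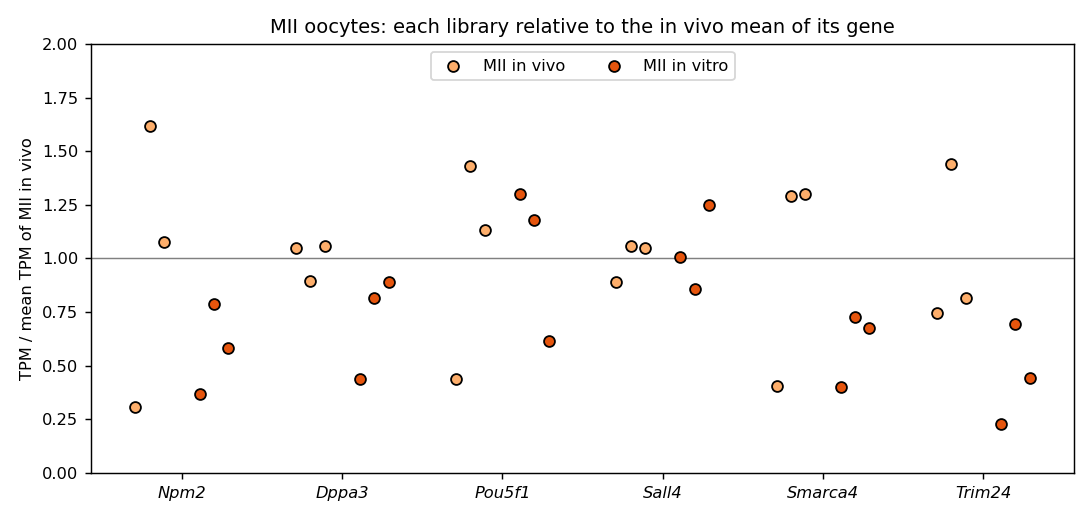
TPM of each MII library divided by the mean of the 3 *in vivo* libraries of the same gene, for the 6 genes on the horizontal axis. Points are libraries, light for *in vivo* and dark for *in vitro*. *Trim24* *in vitro* lies at 0.227 to 0.693 of the *in vivo* mean, and for *Npm2*, *Pou5f1* and *Smarca4* *in vivo* library 1 lies at 0.305 to 0.438.

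Over all genes of the MII comparison edgeR called 0.35% and DESeq2 2.46%, 10.2% had an unadjusted p under 0.05 and in 16.2% the groups did not overlap in scaled counts. Of the 6 members, 0 were called by either tool, 1 had an unadjusted p under 0.05 and 1 did not overlap, each time *Trim24*, and each share is near the background. The median log2 fold change of the 6 was -0.58, beside 0.04 for all 17144 genes. The summed oocyte markers also moved with this comparison, with 16458 to 21358 TPM *in vivo* and 10593 to 16185 TPM *in vitro*, where 13 to 14 of 15 were above the floor in both groups and *Sohlh1* was at 0 in all 3 *in vivo* libraries. *Gdf9* made up most of the *in vivo* sum (8623 to 14549 TPM, against 4976 to 7601 TPM *in vitro*), while *Bmp15* (166 to 298 against 365 to 555.5 TPM) and *Ddx4* (13.4 to 34.8 against 217 to 368 TPM) were higher *in vitro* with no overlap, so the list did not move one way. Their part in the results was not tested.

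In microdissected oocytes the question was the same for primordial and for primary follicles, and none of the 6 genes passed the test in either. At the primordial stage the log2 fold change of *in vitro* over *in vivo* was 7.26 ± 4.16 for *Npm2* (95% interval -0.89 to 15.4, edgeR adjusted p = 0.46) and 6.78 ± 3.82 for *Sall4* (-0.71 to 14.3, edgeR adjusted p = 0.455). Both values came from *in vitro* library 2, which had 915 counts of *Npm2* and 5916 of *Sall4* and the highest summed oocyte markers of the 12 libraries (2013 TPM, with 15 of 15 above the floor). Without that library the log2 fold changes were -1.25 and -6.92. The largest oocyte markers in *in vitro* library 2 were *Dazl* (855 TPM), *Gdf9* (408 TPM) and *Zp1* (322 TPM). *Ddx4* (68.1 TPM) and *Kit* (3.99 TPM) went the other way, below the *in vivo* libraries (274 to 421 and 32.4 to 87.0 TPM). For *Smarca4* the value was 1.99 ± 1.72 and for *Trim24* 1.38 ± 1.89, each highest in *in vitro* library 1, and without that library they were 0.40 and -1.10. That library had the lowest summed oocyte markers of the 12 (332 TPM, of which *Zp1* made up 278 TPM) and the highest endothelial sum (566 TPM, nearly all *Tek*, with *Pecam1*, *Cdh5*, *Kdr* and *Vwf* at 0 counts and 2 of 6 above the floor). The part of these libraries' marker levels in the results was not tested. *Pou5f1* (-0.91 ± 2.90) and *Dppa3* (0.18 ± 2.97) had intervals reaching past 4 on the log2 scale both ways. Of the 6 members 0 were called by edgeR, 0 of the 5 with an adjusted p by DESeq2, 0 had an unadjusted p under 0.05 and 0 had groups that did not overlap, against 0.0326%, 8.55%, 11.7% and 6.59% of all genes.

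At the primary stage none of the 6 genes passed the test between culture and the animal. They ran from -1.47 ± 1.89 for *Trim24* to 1.70 ± 3.05 for *Sall4*, beside a median of 0.44 over all 15317 genes. *Pou5f1* was 57.9 ± 73.2 TPM *in vivo* and 86.0 ± 43.6 TPM *in vitro*, with 0.96 TPM in *in vivo* library 1. *Npm2* was 27.8 ± 38.0 and 52.4 ± 20.6 TPM, and *Dppa3* 4.18 ± 3.46 and 4.15 ± 2.67 TPM. The 3 *in vitro* libraries were closer to each other than the 3 *in vivo* libraries for *Npm2*, *Pou5f1*, *Smarca4*, *Trim24* and *Dppa3* by SD, and not for *Sall4*. The sum of granulosa cell markers did not overlap between these groups, at 493 to 866 TPM *in vivo* and 1146 to 2619 TPM *in vitro*. Above the floor were 4 to 9 of 12 *in vivo* (*Cyp19a1* and *Fshr* at 0 in all 3) and 7 to 11 *in vitro* (*Fshr* at 0 in all 3). Single markers overlapped, such as *Foxl2* (9.45 to 149 TPM *in vivo*, 138 to 327 TPM *in vitro*) and *Inha* (0 to 322 and 183 to 1546 TPM). The sum of red blood cell markers did not overlap either, at 7508, 3499 and 1157 TPM *in vivo* and 174, 0 and 0.493 TPM *in vitro*. Above the floor were 1 to 5 of 5 *in vivo* and 0 to 1 *in vitro* (*Alas2*, *Hbb-bs* and *Hbb-bt* at 0 in all 3). Each single marker was at 0 TPM in some library of both groups and so overlapped, such as *Hba-a1* (0 to 7503 TPM *in vivo*, 0 to 174 TPM *in vitro*). Their part in the results was not tested. None of the 6 was called by edgeR (0% of all genes), none of 5 by DESeq2 (2.59%), none had an unadjusted p under 0.05 (9.66%) and none had groups that did not overlap (9.99%).

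Between the stages, 3 of the 6 genes were higher in primary than in primordial oocytes *in vivo* in all 3 libraries of scaled counts. This count of 3 stands beside 6.39% of all genes, in either direction. *Npm2* had 0, 0 and 4 counts in primordial and 36, 51 and 380 in primary oocytes (log2 fold change 6.81 ± 4.08, 95% interval -1.18 to 14.8, edgeR adjusted p = 0.495). *Smarca4* had 4395, 4398 and 2360 against 19236, 4986 and 10088 counts (1.98 ± 1.72, edgeR adjusted p = 0.693), and without primary *in vivo* library 1, which also held most counts of *Gm27373*, the value was 1.24. *Sall4* had 1, 52 and 0 against 41, 441 and 79 counts (3.62 ± 3.29, edgeR adjusted p = 0.713), and in TPM its groups overlapped, with 1.07 in the lowest primary and 1.33 in the highest primordial library. Of the 6, edgeR called 0 (0.0522% of all genes) and DESeq2 0 of the 5 with an adjusted p (5.91%), and 0 of the 6 had an unadjusted p under 0.05 (11.2% of all genes). *Pou5f1*, *Dppa3* and *Trim24* had values of -0.08 ± 2.88, -0.65 ± 2.98 and 0.51 ± 1.85.

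Of the markers of other cells, the red blood cell sum moved with this comparison. Each single red blood cell marker overlapped, such as *Hbb-bs* (0 to 1178 TPM in primary and 0 to 7.77 TPM in primordial *in vivo* libraries). The theca and stroma sums overlapped. The granulosa cell sums overlapped too, at 493 to 866 TPM in primary and 58.8 to 844 TPM in primordial *in vivo* libraries. Red blood cell markers, of which 1 to 5 of 5 were above the floor, summed to 7508, 3499 and 1157 TPM in primary *in vivo* libraries and to 0, 398 and 7.77 TPM in primordial *in vivo* libraries (0 to 3 of 5 above the floor, *Alas2* at 0 in all 3). Theca and stroma markers summed to 645, 31017 and 455 TPM in primary and 1527, 2432 and 837 TPM in primordial *in vivo* libraries, with *Cyp17a1* and *Lhcgr* at 0 in all 6. In primary *in vivo* library 2, which held the largest theca and stroma sum, *Sall4* was the highest of its group, *Smarca4* the lowest, and *Npm2* lay between the others. The part of these cells in the results was not tested.

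In cultured ovaries the stages did not separate. The log2 fold changes of primary over primordial *in vitro* ran from -2.34 ± 1.94 for *Trim24* to 1.32 ± 2.92 for *Pou5f1*, beside a median of 0.44 over all genes, and *Npm2* was at 0.28 ± 3.17. Without primordial *in vitro* library 2, *Npm2* was at 8.79, *Pou5f1* at 13.2 and *Sall4* at 12.2, since the remaining primordial libraries were at or near 0 counts, and these values depend on the small count added in the fit. Of the members, edgeR called 0 (0% of all genes), DESeq2 0 of 5 (4.99%), 0 had an unadjusted p under 0.05 (10.9%) and in 0 the groups did not overlap (11.2%).

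Whether culture acted differently at the primary than at the primordial stage was tested as an interaction. The log2 difference was -6.53 ± 4.87 for *Npm2*, -5.08 ± 4.44 for *Sall4*, -2.96 ± 2.40 for *Smarca4*, -2.85 ± 2.67 for *Trim24*, -0.53 ± 4.20 for *Dppa3* and 1.40 ± 4.09 for *Pou5f1*, beside a median of 0.91 for all genes. Of the 6, 5 were below 0 and 0 were called by edgeR (0.104% of all genes), 0 of 5 by DESeq2 (5.83%) and 0 had an unadjusted p under 0.05 (11.5%). The lowest edgeR adjusted p of the 6 was 0.719.

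**Figure D3:**
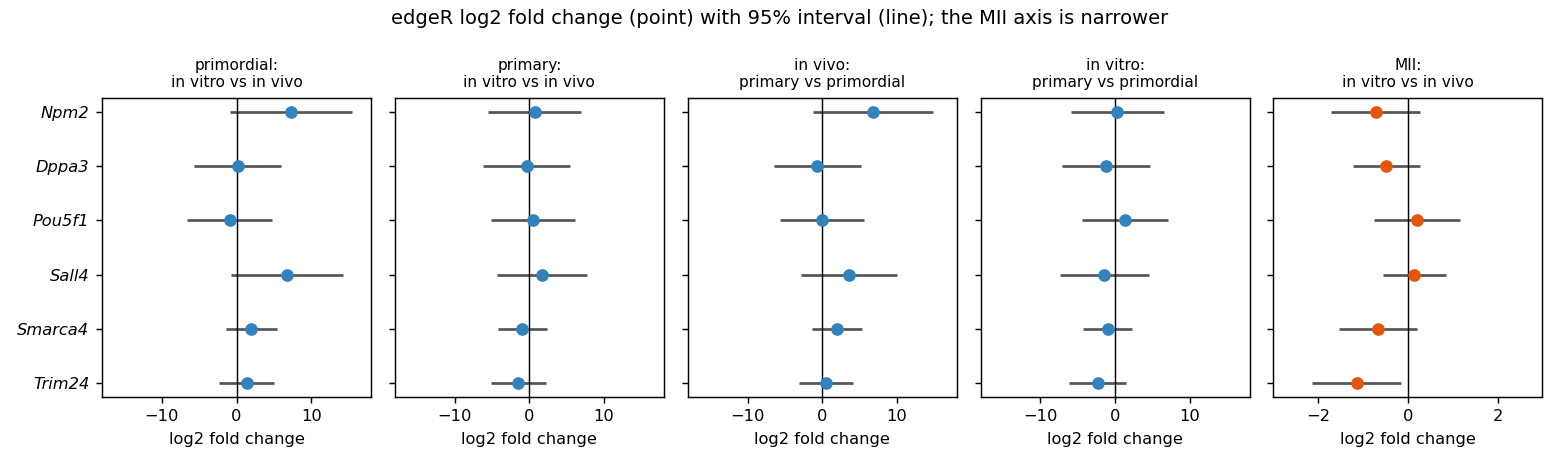
Log2 fold change of each gene (point) with its 95% interval (line) in 5 comparisons, as fitted by edgeR; the horizontal axis of the MII panel is narrower than the others. In the 4 microdissected panels every interval includes 0, and in the MII panel only that of *Trim24*, -2.15 to -0.14, leaves out 0, before adjustment.

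As a set the members did not rise and fall together over libraries, and the pairs below are given as a description. They are the pair with the highest r over the microdissected libraries, and those with the highest and lowest r over the MII libraries. Over the 12 microdissected libraries, pairs other than *Npm2* with *Sall4* had Pearson's r from -0.41 to 0.57. The 12 microdissected libraries share 1 kit and the 6 MII libraries another, with lower depth, so that values over all 18 also hold the step between them. *Npm2* and *Sall4* had Pearson's r of 0.91 over 18 libraries and 0.87 over the 12 microdissected libraries (log2 CPM), but -0.37 over the 6 MII libraries. *Npm2* and *Smarca4* had r of 0.16 over the 12 and 0.95 over the 6 libraries. *Dppa3* and *Pou5f1* had r of -0.76 over the 6 MII libraries and -0.20 over the 12.

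The genes whose pattern was most like each member over 18 libraries, of 11931 compared, are given by name only for their likeness. For *Npm2* they were *Pou2f2* (r 0.958), *Cdo1* (0.948) and *Slc45a3* (0.943), and for *Sall4* *Smoc2* (0.946), *Gbx2* (0.943) and *Slc45a3* (0.942). For *Dppa3* they were *Nlrp4f* (0.986), *C87499* (0.985) and *Tcl1b2* (0.985), and for *Pou5f1* *Wasl* (0.942), *Ints8* (0.911) and *Ctbp2* (0.909). *Smarca4* was most like *Tmsb10* (0.945), *Ap2a1* (0.943) and *Hsp90b1* (0.935), and *Trim24* most like *Nrbp1* (0.893), *Otud5* (0.892) and *Ubqln4* (0.885). The likeness to *Dppa3* was a step between microdissected and MII libraries, which differ in stage and kit. Within the microdissected libraries r was 0.556, 0.329 and -0.06 for its 3 genes, and 0.76 to 0.955 for those of the other members. Within the MII libraries r was -0.23 to 0.18 for *Dppa3*, -0.67 to 0.84 for *Npm2* and -0.18 to 0.083 for *Sall4*. It was -0.24 to 0.45 for *Pou5f1*, 0.13 to 0.43 for *Trim24* and 0.70 to 0.75 for *Smarca4*.

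**Figure D4:**
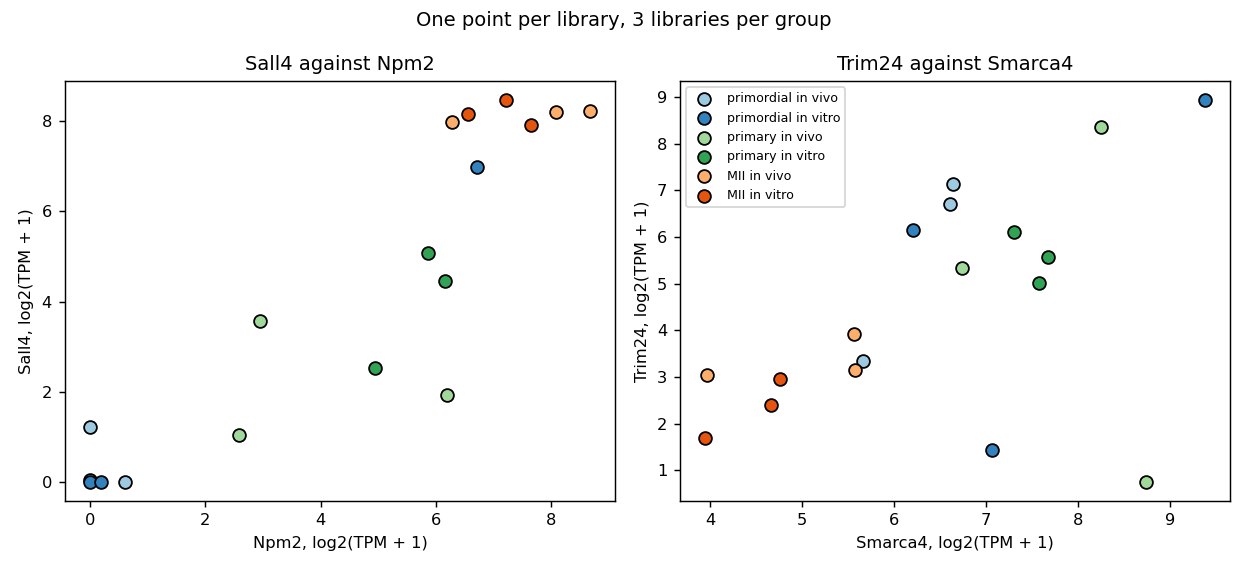
TPM of *Sall4* against *Npm2* (left) and of *Trim24* against *Smarca4* (right), both as log2(TPM + 1), 1 point per library and 1 colour per group. *Npm2* and *Sall4* are both near 0 in 5 of the 6 primordial libraries and both high in primordial *in vitro* library 2 and in the 6 MII libraries, whereas *Trim24* and *Smarca4* scatter among the microdissected libraries.

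The partners of these genes were followed as 4 lists, and edgeR called no list gene in any comparison, beside 0% to 0.35% of all genes. Beside its share of 2.46% to 8.55% of all genes by comparison, DESeq2 called 7 of the 327 list values with an adjusted p, over all 6 comparisons. In microdissected oocytes these were *Smarcd3*, a BAF subunit, in the primordial culture comparison (log2 fold change by DESeq2 -8.66, DESeq2 adjusted p = 0.0377, edgeR adjusted p = 0.362) and in the *in vitro* stage comparison (9.55, 0.0261 and 0.384), *Lin28a*, an RNA-binding protein of pluripotent cells, and *Trim28*, a relative of *Trim24*, in the *in vivo* stage comparison (7.78, 0.0194 and 0.473, and 5.69, 0.032 and 0.426), and *Asf1b*, a histone chaperone gene, in the interaction (11.3, 0.0421 and 0.364). In MII oocytes they were *Cabin1* and *Uhrf1*, 2 of 67 list genes with an adjusted p, beside 2.46% of all genes. At an unadjusted p under 0.05, the count over the 6 comparisons never passed 5 genes of a list. In the MII comparison 2 of 17 BAF complex genes, 3 of 18 histone chaperone and variant genes, 5 of 18 pluripotency network genes and 3 of 16 genes of DNA methylation and the TIF1 family had such a p, beside 10.2% of all genes. Median log2 fold changes of the lists were -0.32, -0.0011, 0.27 and 0.28, in that order. The genes described next are the 2 of each list with the smallest p in the MII comparison. In that comparison the groups of 16.2% of all genes did not overlap in scaled counts.

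Among the partners of *Smarca4*, *Smarcd2*, a BAF subunit, had 19.5, 72.3 and 69.8 TPM *in vivo* and 20.6, 21.3 and 28.3 TPM *in vitro* in MII oocytes (log2 fold change -1.09 ± 0.44, edgeR adjusted p = 0.44). *Actl6a*, the actin-related BAF subunit, had 15.6, 24.7 and 12.6 against 17.97, 28.9 and 62.3 TPM (1.05 ± 0.46, edgeR adjusted p = 0.468). In both the groups overlapped in TPM.

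Of the histone chaperone genes beside *Npm2*, *Cabin1*, a subunit of the HIRA complex, had 32.9, 41.6 and 44.6 TPM *in vivo* and 11.1, 22.9 and 14.01 TPM *in vitro* (log2 fold change -1.29 ± 0.32, edgeR adjusted p = 0.148, DESeq2 adjusted p = 0.00677). All 3 *in vitro* libraries were below all 3 *in vivo* libraries. *H3f3a*, which encodes histone variant H3.3 that this complex deposits, had 20.4, 48.0 and 23.3 against 24.1, 40.5 and 148.0 TPM (1.22 ± 0.55, edgeR adjusted p = 0.48), with overlap.

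Among the genes of DNA methylation, in the role of *Dppa3*, *Uhrf1* is the partner of the maintenance methyltransferase, and DPPA3 is known to keep it out of the nucleus. It had 463.8, 533.1 and 515.3 TPM in MII oocytes *in vivo* and 114.4, 356.5 and 210.3 TPM *in vitro* (log2 fold change -1.17 ± 0.35, edgeR adjusted p = 0.266, DESeq2 adjusted p = 0.0418), with no overlap. *Dnmt3l*, a cofactor of the *de novo* methyltransferases, had 16.8, 56.1 and 36.01 against 58.9, 61.6 and 104.3 TPM (1.14 ± 0.42, edgeR adjusted p = 0.409), also with no overlap.

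In the pluripotency list, beside *Pou5f1* and *Sall4*, *Dppa2*, a chromatin protein of pluripotent cells, had 22.1, 60.8 and 68.1 TPM *in vivo* and 54.7, 169.1 and 152.1 TPM *in vitro* (1.34 ± 0.44, edgeR adjusted p = 0.337), which overlapped in TPM and not in scaled counts. Its partner *Dppa4* had 1, 16 and 13 counts *in vivo* and 0 in all 3 *in vitro* libraries (edgeR adjusted p = 0.439), which is a low count near the floor.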

How the data were processed

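Per the sources, the authors trimmed reads with Trim Galore 0.4.1 (submitters' processing notes), aligned them to the mm10 build (TopHat2) and assigned them to genes (featureCounts). The deposited counts are whole reads, not normalized, and the deposited TPM values, made by the authors, are scaled for gene length and library. Microdissected oocytes were cut from paraformaldehyde-fixed paraffin sections, and their RNA was amplified (Ovation PICO SL WTA V2) and captured (TruSeq RNA Access). MII oocyte RNA was made into libraries by Smart-seq II.

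Members and lists were chosen with earlier results of these data known. Named genes are the 6 members, for each the 3 genes with the highest correlation of log2 CPM (TMM, prior count 2) over 18 libraries, and for each of 4 lists the genes called and the 2 with the smallest p in the MII comparison. Counts were tested with edgeR 4.0.16 (glmQLFit, robust, glmQLFTest; R 4.3.3) on TMM-scaled libraries, leaving out genes under 10 counts over the model's libraries, with 1 model of the 12 microdissected and 1 of the 6 MII libraries. The code was tested on simulated data. Alternatives were DESeq2 1.42.0, limma 3.58.1 on log2(TPM + 1) and log2(TPM + 0.1), other scaling and filters, a block for the replicate number, 1 model of 18 libraries, models of 2 groups at a time, and each library left out. An exact test of 3 against 3 libraries cannot go below p = 0.1 and was not used. Positions come from GENCODE on GRCm38 by Ensembl identifier.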

Additional observations from a re-analysis of the deposited data

How the results depend on the processing

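No member was called in any comparison under any setting run. edgeR called 5, 0, 8, 0, 16 and 60 genes of all in, in order, the primordial and primary culture comparisons, the *in vivo* and *in vitro* stage comparisons, the interaction and the MII comparison. DESeq2 called 769, 226, 532, 423, 540 and 365. Of the counts that moved by over 1.5 times, in the primordial, *in vivo* stage and interaction comparisons no filter gave 0, 0 and 1, filterByExpr 0, 0 and 0, a replicate block 1, 0 and 0, 1 model of 18 libraries 0, 0 and 0, and limma on log2(TPM + 1) and log2(TPM + 0.1) 0 each. Fits of only the 2 groups gave 9, 5 and 3 in the primordial, primary and *in vivo* stage comparisons, DESeq2 size factors 1 in the primary, and in MII no filter gave 263 and 1 model of 18 libraries 0. Leaving out each library gave 0 to 3, 0 to 1, 0 to 11, 0 to 0, 0 to 20 and 11 to 378.

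Signs of members turned as follows, none past the threshold. With limma at the pseudocounts of 1 and 0.1, *Trim24* was -0.22 and -0.37 (primordial), 0.75 and 1.09 (primary), -0.92 and -1.25 (*in vivo* stage), 0.050 and 0.22 (*in vitro* stage) and 0.97 and 1.47 (interaction), *Dppa3* was 0.039 and 0.045 (primary), and *Sall4* was 1.69 and 3.79 (*in vitro* stage) and, at 0.1, 0.12 (interaction). The replicate block gave *Sall4* 4.57 (*in vitro* stage), and filterByExpr gave *Pou5f1* 0.036 (*in vivo* stage). The cause was not tested.

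Leaving out each library in turn also turned signs, with these ranges of the log2 fold change. In the primordial culture comparison they were *Dppa3* -0.20 to 0.63, *Pou5f1* -12.8 to 0.087, *Trim24* -1.10 to 2.03, *Npm2* -1.25 to 11.1, *Sall4* -6.92 to 11.4. In the primary culture comparison they were *Pou5f1* -0.089 to 2.21, *Dppa3* -0.75 to 0.32, *Trim24* -2.05 to 1.06. In the *in vivo* stage comparison they were *Pou5f1* -1.81 to 0.92, *Trim24* -2.03 to 1.15. In the *in vitro* stage comparison they were *Npm2* -0.30 to 8.79, *Smarca4* -1.44 to 0.61, *Trim24* -2.93 to 0.14, *Sall4* -2.07 to 12.2. In the interaction comparison they were *Npm2* -10.3 to 1.98, *Sall4* -9.67 to 8.62, *Dppa3* -0.98 to 0.14. In the MII comparison they were *Pou5f1* -0.24 to 0.53, *Sall4* -0.013 to 0.34.

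Replicate numbers did not pair the libraries: deviations of 21 same-numbered pairs correlated at -0.0662 to 0.0897, none over 0.1. Microdissected libraries have a biological coefficient of variation of 2.02, which sets the width of the intervals.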
